A study of Homo sapiens with 6 samples.

Results

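Wnt ligands, their Frizzled receptors and the proteins that act next to them were measured by RNA sequencing in HCT116 cells, a human colon carcinoma line, and make up 39 of the 35106 gene rows. The 39 genes were taken by name. They are the 19 Wnt ligands, the 10 Frizzled receptors, the co-receptors and alternative receptors LRP5, LRP6, ROR1, ROR2 and RYK, the ligand-export genes PORCN and WLS, and the 3 Dishevelled genes DVL1, DVL2 and DVL3. All libraries carry a wild-type genotype label, and the labels describe growth in medium with serum and lysis in Trizol. The untreated group held 3 libraries and the curcumin group 3 libraries from cells kept for 24 h with curcumin, the yellow polyphenol of turmeric, at a dose that the labels write as 30 with a length unit and that is read here as 30 µM. No vehicle is named in the sources used here, and no source says whether each library had a culture of its own. The p-values therefore measure the spread among these 6 libraries, and part of it may be technical.

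Wnt ligands are lipid-modified secreted proteins. PORCN attaches the lipid, WLS carries the ligand to the cell surface, and the ligand then bridges a Frizzled receptor and LRP5 or LRP6. Dishevelled proteins couple the bound receptors to the cytoplasm, where beta-catenin escapes degradation and enters the nucleus to work with TCF factors. In the colon this pathway maintains crypt stem cells, and HCT116 carries an activating mutation of the beta-catenin gene itself, which acts downstream of the ligands and receptors.

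Levels are given as CPM, the usual depth-scaled count, after TMM scaling, which corrects for differences in library make-up. A gene was called higher or lower in curcumin at a Benjamini-Hochberg adjusted p under 0.05 in edgeR's quasi-likelihood test over all 13718 genes that passed a filter on low counts. Of the 39 genes 33 passed that filter, 4 of them (WNT4, WNT7A, FZD8 and FZD9) through the untreated libraries only. Among the 33, 19 were called lower and 4 higher, against 28.9% called lower and 27.2% called higher among all tested genes. The median log2 fold change was −0.99 for the 33 and −0.037 for all tested genes.

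Among the genes that were called, the direction followed the role in the pathway. All 9 Frizzled genes with enough counts fell, as did all 5 co-receptor and alternative receptor genes. Of the 14 ligands tested 5 fell and 0 rose, a lower share near the 28.9% of all tested genes. Both ligand-export genes and 2 of the 3 Dishevelled genes rose, although none of these 4 kept its call with library size alone as the scale, where WLS, DVL2 and DVL3 had log2 fold changes of −0.21, −0.29 and −0.28. A log2 fold change under −2 with a call was found for 7 of the 33, 6 of them Frizzled genes, beside 3.62% of all tested genes. Of those 6, FZD8 and FZD9 passed the filter only through the untreated libraries, which favours a fall, and with each library's trend of counts with transcript length removed (the length-corrected fit) the counts were 5 and 4.

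The RefSeq promoter windows, 250 bases before to 50 after a start site on GRCh38.p14, were read for genes that moved in opposite directions, to show what their start regions look like. Windows were found for 30 of the 39 genes, 35 windows in all. The capitals mark GC boxes (GGGCGG, or CCGCCC on the other strand, which may overlap each other) and CCAAT boxes (CCAAT, or ATTGG on the other strand). FZD1 is at chr7:91264183-91264482, plus strand. FZD4 is at chr11:86955346-86955645, minus strand. WNT6 is at chr2:218859555-218859854, plus strand. PORCN is at chrX:48508742-48509041, plus strand, the first of its pair of windows.
FZD1: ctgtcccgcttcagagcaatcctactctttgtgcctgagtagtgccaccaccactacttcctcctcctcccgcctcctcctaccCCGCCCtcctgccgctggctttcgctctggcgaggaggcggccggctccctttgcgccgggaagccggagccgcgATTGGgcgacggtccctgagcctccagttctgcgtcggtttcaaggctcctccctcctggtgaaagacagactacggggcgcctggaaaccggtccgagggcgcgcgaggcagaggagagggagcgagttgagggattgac
FZD4: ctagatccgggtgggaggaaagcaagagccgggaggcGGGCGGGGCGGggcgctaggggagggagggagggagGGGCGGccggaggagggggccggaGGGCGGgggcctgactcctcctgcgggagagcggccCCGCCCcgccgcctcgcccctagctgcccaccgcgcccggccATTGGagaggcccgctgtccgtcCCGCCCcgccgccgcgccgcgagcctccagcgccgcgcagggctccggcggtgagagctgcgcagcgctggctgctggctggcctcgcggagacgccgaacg
WNT6: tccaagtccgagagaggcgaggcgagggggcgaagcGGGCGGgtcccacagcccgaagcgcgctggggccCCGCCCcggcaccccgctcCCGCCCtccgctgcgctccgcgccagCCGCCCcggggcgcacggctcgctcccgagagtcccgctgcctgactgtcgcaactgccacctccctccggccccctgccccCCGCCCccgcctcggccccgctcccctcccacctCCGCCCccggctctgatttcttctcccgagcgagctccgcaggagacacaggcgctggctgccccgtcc
PORCN: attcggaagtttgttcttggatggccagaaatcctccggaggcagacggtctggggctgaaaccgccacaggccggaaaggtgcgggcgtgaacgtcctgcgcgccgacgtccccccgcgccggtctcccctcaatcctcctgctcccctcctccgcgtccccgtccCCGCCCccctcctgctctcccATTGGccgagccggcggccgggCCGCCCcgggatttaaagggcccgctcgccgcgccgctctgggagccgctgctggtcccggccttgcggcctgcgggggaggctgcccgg

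All 4 windows are rich in G and C, from 65.7% in FZD1 to 79.7% in FZD4, with WNT6 at 78.0% and PORCN at 72.7%. FZD1 holds 1 GC box, FZD4 holds 6, WNT6 holds 6 and PORCN holds 2. Over the 35 windows a GC box was found in 26, against 44.95% of 35116 promoters in the RefSeq table, and the median count of CG dinucleotides was 31 against 14. A CCAAT box was found in 15 (34.6% of all promoters) and the TATA box letters TATAAA, in either strand, in 2 (11.5%). Of the TCF/LEF core letters, CTTTGAT was in 0 and CTTTGTT in 1, that of WNT3 (2.62% and 5.20% of all promoters). The heat shock element core GAANNTTC was in 2, those of WNT8A and WNT16 (6.77%). These matches describe letters only. PORCN, which rose, and FZD4 and WNT6, which fell, all hold GC boxes and no TATAAA in the windows shown. The second PORCN window differs, at 57.3% G and C with 8 CG dinucleotides and 0 GC boxes. Of the other genes that rose, DVL2 and DVL3 hold 2 and 3 GC boxes, and both WLS windows hold 0. ROR1 and WNT16, which fell, also hold 0, whereas every other window of a gene called lower holds a GC box. Only 5 of the 10 Frizzled genes had a window, and FZD2, FZD6 and FZD7 had none.

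The libraries held 16663562 to 20311769 counts, so that 3 counts corresponded to 0.114 to 0.123 CPM in untreated and 0.224 to 0.238 CPM in curcumin libraries. The TMM factors differed between the groups, at 1.30 to 1.34 untreated and 0.716 to 0.804 with curcumin, and library size alone moved the median log2 fold change of all tested genes from −0.037 to −0.84. On that scale 24 of the 33 genes were called lower and 0 higher, against 56.5% and 9.62% of all tested genes. Fold changes across the table also fell with transcript length (Spearman rho −0.45 across 13101 protein-coding genes, which share libraries and are not replicates). With each library's length trend removed, 17 of the 33 were called lower and 3 higher, against 23.0% and 25.4% of the genes tested in that fit. Of 8 colon epithelial markers, 6 had means over 1 CPM in both groups, whereas VIL1 lay between 0 and 0.872 CPM and CDX1 between 0 and 0.0793 CPM. The summed CPM of the 8 markers was 3787 to 4484 untreated and 7210 to 8454 with curcumin. Of the 6 tested, 4 were called higher (27.2% of all tested genes) and 1 lower (28.9%). With library size alone 1 was called higher (9.62%) and 2 lower (56.5%). Markers of other cells were low. Their summed CPM ran from 25.7 to 30.7 and from 15.5 to 38.7 for 6 fibroblast genes, of which only COL1A1 exceeded a mean of 1 CPM, from 2.51 to 3.45 and from 15.9 to 32.6 for 4 immune genes, and from 1.36 to 2.20 and from 8.29 to 28.0 for 3 endothelial genes. Within the immune list CD68, a lysosomal protein, and LYZ rose, with CD3E at 0 in every library and PTPRC at no more than 0.555 CPM. Within the endothelial list PECAM1 rose, with CDH5 at no more than 0.118 CPM. VWF, the other tested gene of that list, was not called under TMM scaling. In the length-corrected fit both PECAM1 and VWF were called higher. The part of these marker changes in the results was not tested.

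**Figure D1:**
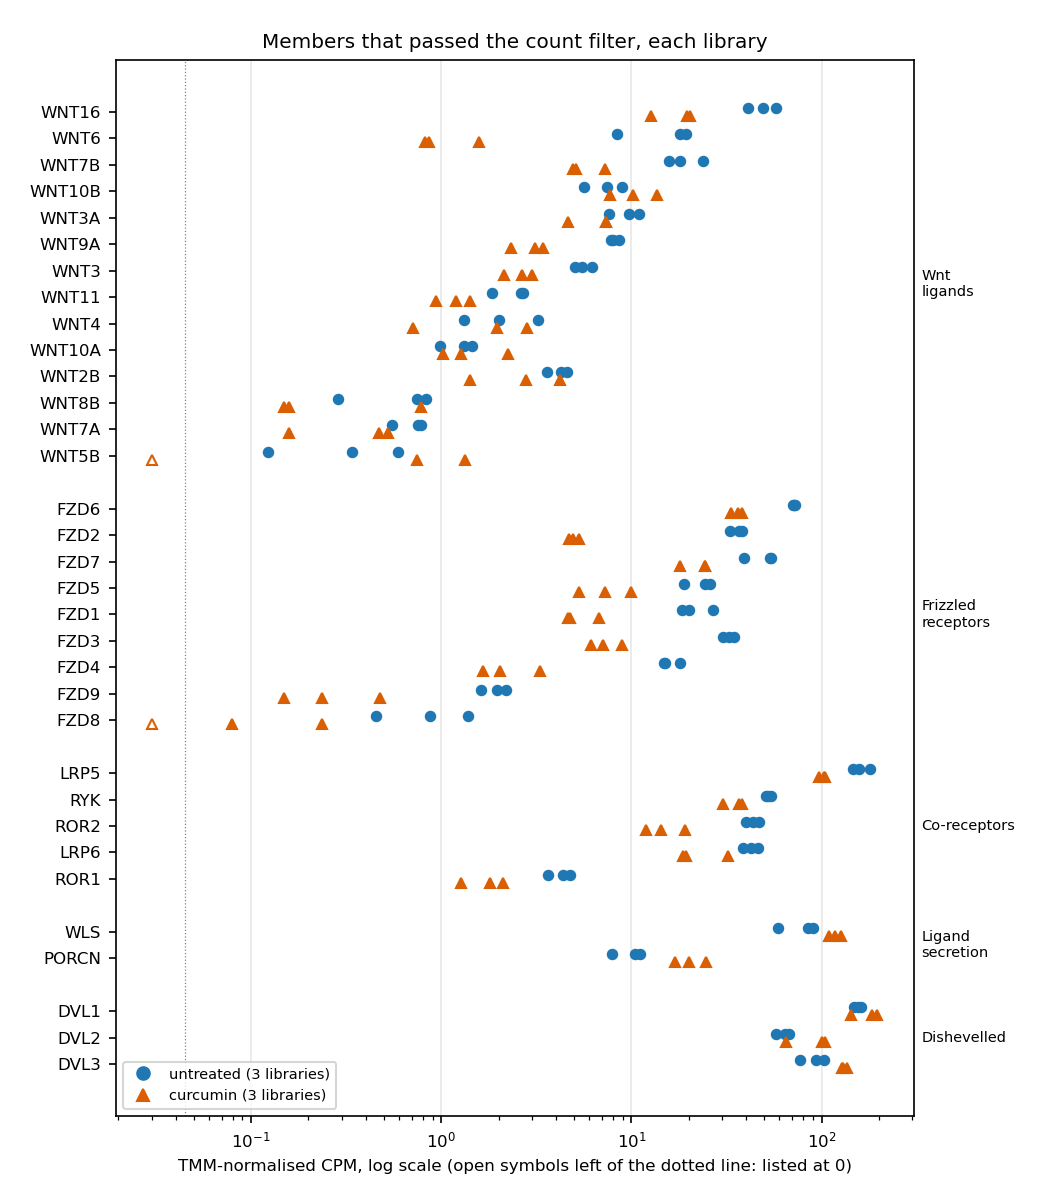
TMM-normalised CPM (log axis) of the 33 genes that passed the count filter, 1 symbol per library, blue circles for 3 untreated and orange triangles for 3 curcumin libraries, grouped by role. In all 9 Frizzled rows and all 5 co-receptor rows the orange symbols lie to the left of the blue ones, and open triangles mark libraries listed at 0.

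Frizzled receptors are membrane proteins with an extracellular cysteine-rich domain that binds the Wnt lipid. FZD2 (ENSG00000180340, chromosome 17, 44557459 to 44559570, plus strand of GRCh38, a single exon) held 36.6, 32.8 and 38.3 CPM in untreated replicates 1 to 3 and 4.93, 4.68 and 5.31 CPM in curcumin replicates 1 to 3. The groups did not overlap, and FZD2 fell by 2.85 ± 0.18 on the log2 scale (SE, adjusted p = 1.1e-05). FZD4, which also serves as the receptor for the non-Wnt ligand Norrin, held 15.04, 14.8 and 18.01 CPM untreated and 3.29, 1.67 and 2.03 CPM with curcumin (log2 −2.77 ± 0.29, adjusted p = 4.4e-05). Its transcript (chromosome 11, 86945679 to 86955391, minus strand) shares 1399 exonic bases with PRSS23 on the opposite strand. PRSS23 itself was 10.2 to 12.3 CPM untreated and 3.33 to 7.54 CPM with curcumin, and reads in the shared stretch cannot be assigned, since the use of strand in counting is not stated in the labels.

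FZD3, a receptor known from axon guidance, held 32.4, 30.4 and 34.6 CPM untreated and 6.12, 8.96 and 7.11 CPM with curcumin (log2 −2.13 ± 0.20, adjusted p = 2.5e-05). FZD1 held 20.002, 26.9 and 18.4 CPM and then 4.63, 4.76 and 6.72 CPM (log2 −2.02 ± 0.24, adjusted p = 0.00010). For both genes every treated library lay below every untreated one. FZD5, which is needed for Paneth cell maturation in the gut, held 18.98, 25.9 and 24.2 CPM untreated and 7.24, 5.31 and 9.997 CPM with curcumin (log2 −1.61 ± 0.26, adjusted p = 0.00047).

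The 2 most abundant Frizzled transcripts by CPM fell least. FZD6, linked to planar cell polarity, held 72.5, 70.3 and 71.4 CPM untreated and 38.2, 33.3 and 36.2 CPM with curcumin (log2 −0.99 ± 0.14, adjusted p = 0.00023). FZD7, a receptor of intestinal stem cells, held 54.4, 38.99 and 53.3 CPM and then 24.3, 18.1 and 24.4 CPM (log2 −1.14 ± 0.19, adjusted p = 0.00076). Neither gene showed any overlap between the groups. FZD9 was scarce, at 2.20, 1.97 and 1.61 CPM untreated and 0.149, 0.476 and 0.234 CPM with curcumin (log2 −2.73 ± 0.60, adjusted p = 0.0032), and 11 counts in all remained in the treated libraries. FZD8 ranged from 0.452 to 1.38 CPM untreated and from 0 to 0.234 CPM with curcumin, 69 against 4 counts in all. It was called lower (log2 −3.04 ± 0.92, adjusted p = 0.017), but lost the call on leaving out untreated replicate 1, untreated replicate 3 or curcumin replicate 2, where the adjusted p was 0.056, 0.088 and 0.061 in turn. FZD10 was listed at 0 in all 6 libraries.

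The fall of the Frizzled genes held across the scales that were tried. All 9 were called lower with library size alone (56.5% of all tested genes), with a median of −2.94 against −0.84 for all tested genes. All 9 were also called lower with the length trend removed (23.0% of the genes tested in that fit), with a median of −1.40. Under TMM scaling the median of the 9 was −2.13. Coding sequence in a single exon is a shared feature of 7 of the 10 Frizzled genes, found in 11.1% of 19536 protein-coding genes in the table. Tested protein-coding genes with a single coding exon were called lower in 48.2% of 794 cases, with a median log2 fold change of −0.76. The 3 Frizzled genes with several coding exons, FZD3, FZD4 and FZD6, were also called lower. The part of this feature in the fall of the Frizzled genes was not tested.

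**Figure D2:**
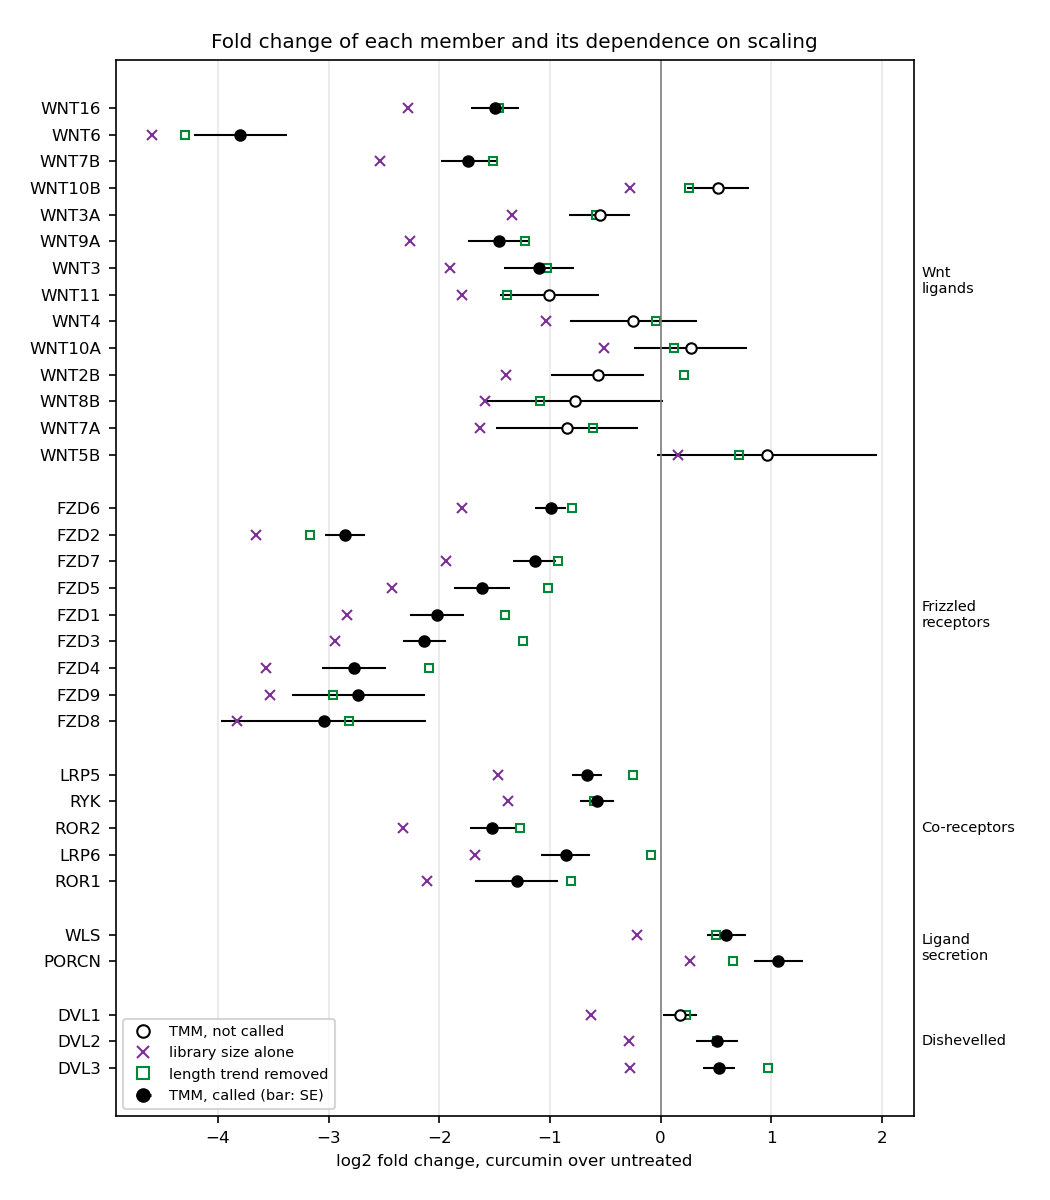
Log2 fold change of curcumin over untreated for the 33 tested genes, with black circles for TMM scaling (filled when called, bars show SE), purple crosses for library size alone and green squares with each library's length trend removed. All 3 symbols lie under 0 for the 9 Frizzled genes, whereas the crosses of WLS, DVL1, DVL2 and DVL3 lie under 0 and their other symbols above it.

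Levels of different genes were compared per kilobase of the longest protein-coding transcript, since a longer transcript gives more reads. On this scale FZD6 led in untreated cells at 18.9 ± 0.286 CPM per kilobase (SD, n = 3), with FZD2 at 16.99 ± 1.33 and FZD7 at 12.7 ± 2.23. FZD5, FZD1, FZD3 and FZD4 followed at 3.44 ± 0.540, 3.13 ± 0.648, 2.36 ± 0.150 and 2.16 ± 0.241, and the neighbours FZD5 and FZD1, and FZD3 and FZD4, differed by less than their spread. In curcumin libraries the order was FZD6 at 9.48 ± 0.646, FZD7 at 5.76 ± 0.934 and FZD2 at 2.35 ± 0.151.

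The make-up of the Frizzled pool shifted, a comparison within each library in which the scaling factors cancel. FZD2 made up 28.1%, 27.2% and 28.7% of the summed Frizzled level per kilobase in untreated replicates 1 to 3 and 10.9%, 12.1% and 11.5% in curcumin replicates 1 to 3. FZD6 went from 30.96%, 32.5% and 29.9% to 47.1%, 48.1% and 43.9%. FZD7 went from 22.8%, 17.7% and 21.9% to 29.4%, 25.6% and 28.96%. None of these 3 shares overlapped between the groups. The ratio of FZD6 to FZD2 was 1.04 to 1.20 untreated and 3.80 to 4.32 with curcumin. Summed over all 10 genes, Frizzled CPM was 253, 243 and 261 untreated and 88.8, 77.3 and 92.2 with curcumin. In bulk RNA, fewer expressing cells and less transcript per cell cannot be told apart.

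**Figure D3:**
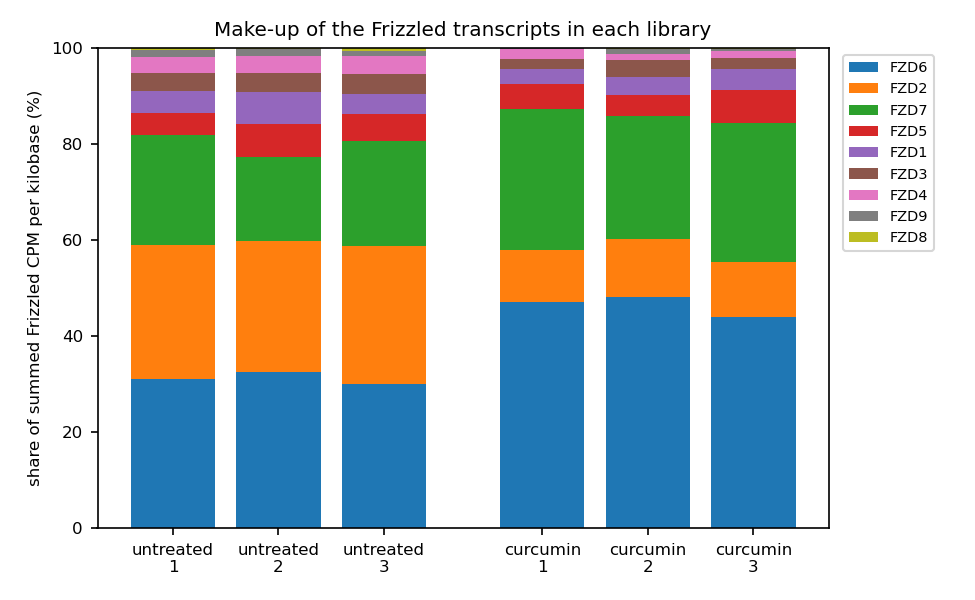
Share of each Frizzled gene in the summed Frizzled CPM per kilobase of transcript (%), 1 bar per library, untreated replicates on the left and curcumin replicates on the right. The orange FZD2 segment takes 27.2% to 28.7% of the untreated bars and 10.9% to 12.1% of the curcumin bars, and the blue FZD6 segment 29.9% to 32.5% and 43.9% to 48.1%.

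The single-pass co-receptors fell less than most Frizzled genes. LRP5 (chromosome 11, 68312609 to 68449275, 23 exons) held 158, 146 and 179.6 CPM untreated and 103, 105 and 97.1 CPM with curcumin (log2 −0.67 ± 0.14, adjusted p = 0.0022). LRP6 held 38.4, 42.5 and 46.1 CPM and then 19.4, 18.6 and 32.1 CPM (log2 −0.86 ± 0.22, adjusted p = 0.0079), with curcumin replicate 3 the highest of the treated libraries. After removal of the length trend neither was called (−0.25 for LRP5 with adjusted p = 0.16, −0.088 for LRP6 with adjusted p = 0.70), and LRP6 has a transcript of 10020 bases. LRP5 made up 86.96% to 88.9% of the LRP5 and LRP6 level per kilobase untreated and 85.5% to 91.6% with curcumin, so the balance of the pair overlapped between the groups.

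ROR2, a receptor tyrosine kinase-like protein for Wnt5a-type ligands, held 39.9, 43.6 and 46.6 CPM untreated and 11.9, 19.2 and 14.3 CPM with curcumin (log2 −1.52 ± 0.20, adjusted p = 0.00016). Its relative ROR1 was 3.64, 4.77 and 4.36 CPM and then 1.79, 1.27 and 2.11 CPM (log2 −1.30 ± 0.37, adjusted p = 0.014). ROR1 lost its call when the length trend was taken out (−0.81, adjusted p = 0.084) and without untreated replicate 3 (adjusted p = 0.050). RYK, an atypical Wnt receptor with an inactive kinase domain, held 54.1, 52.2 and 50.997 CPM untreated and 36.97, 38.2 and 30.5 CPM with curcumin (log2 −0.57 ± 0.15, adjusted p = 0.0088). Among these 3 receptors RYK went from 58.8% to 64.0% of the summed level per kilobase in untreated libraries to 72.6% to 79.7% in treated ones.

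Wnt ligands are secreted glycoproteins, and 14 of the 19 genes passed the filter. WNT16, the most abundant ligand per kilobase (15.7 ± 2.63 CPM per kilobase untreated, SD, n = 3), held 57.7, 49.2 and 41.1 CPM untreated and 20.3, 19.5 and 12.7 CPM with curcumin (log2 −1.49 ± 0.22, adjusted p = 0.00028). WNT6 (ENSG00000115596, chromosome 2, 218859821 to 218874233, plus strand, 4 exons) held 19.3, 8.34 and 17.9 CPM untreated and 0.821, 1.59 and 0.859 CPM with curcumin. Untreated replicate 2 was the lowest of its group and still over 5 times the highest treated library. WNT6, whose promoter window holds 6 GC boxes, fell by 3.80 ± 0.42 (adjusted p = 5.9e-05), the steepest fall among the 33 genes.

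WNT7B held 18.1, 15.8 and 23.7 CPM untreated and 7.24, 4.92 and 5.08 CPM with curcumin (log2 −1.74 ± 0.25, adjusted p = 0.00026). WNT9A was 7.77, 7.97 and 8.57 CPM and then 2.32, 3.41 and 3.12 CPM (log2 −1.46 ± 0.28, adjusted p = 0.0015). WNT3, an activator of the beta-catenin branch that Paneth cells supply to stem cells, was 5.49, 6.16 and 5.07 CPM and then 2.99, 2.14 and 2.66 CPM (log2 −1.10 ± 0.31, adjusted p = 0.013). In these 3 genes no treated library reached the lowest untreated one.

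The other 9 tested ligands were not called. WNT3A, the ligand most used to activate the beta-catenin branch in culture, was 9.70, 7.60 and 11.01 CPM untreated and 7.32, 7.37 and 4.61 CPM with curcumin (−0.55 ± 0.27, adjusted p = 0.11). WNT11 was 2.61, 1.85 and 2.67 CPM and then 1.42, 1.19 and 0.937 CPM (−1.005 ± 0.45, adjusted p = 0.082), and removal of the length trend made it a lower call (−1.39, adjusted p = 0.024). Both had non-overlapping groups, as did 22 of the 33 genes on the lower side, against 33.1% of all tested genes. WNT2B was 4.28, 3.62 and 4.56 CPM untreated and 1.42, 2.78 and 4.22 CPM with curcumin (−0.57 ± 0.42, adjusted p = 0.28, and 0.21 in the length-corrected fit). It shares 2661 exonic bases with ST7L on the opposite strand, which was 4.48 to 5.70 CPM untreated and 10.9 to 12.7 CPM with curcumin. These overlapping reads leave the WNT2B value uncertain.

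WNT10B stood apart from the ligands that fell, at 5.64, 7.44 and 8.96 CPM untreated and 13.7, 10.1 and 7.73 CPM with curcumin (0.52 ± 0.28, adjusted p = 0.14). It was called higher without curcumin replicate 3 (0.70, adjusted p = 0.042) and had a log2 fold change of −0.28 with library size alone. Within the ligand pool its share of the level per kilobase was 5.28%, 8.88% and 8.76% untreated and 27.4%, 24.1% and 22.2% with curcumin, while that of WNT6 went from 24.1%, 13.3% and 23.4% to 2.20%, 5.03% and 3.29%. Neither share overlapped between the groups. The summed ligand level fell, so its share does not show by itself that WNT10B rose. WNT4 was 2.01, 1.31 and 3.22 CPM untreated and 2.84, 0.714 and 1.95 CPM with curcumin (−0.25 ± 0.57, adjusted p = 0.73), and WNT10A was 0.985, 1.31 and 1.45 CPM and then 2.24, 1.27 and 1.02 CPM (0.27 ± 0.51, adjusted p = 0.67, and −0.51 with library size alone).

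WNT5B, WNT7A and WNT8B passed the filter but stayed under 1 CPM in both group means, between 0.123 and 0.833 CPM untreated and between 0 and 1.33 CPM with curcumin, with adjusted p from 0.29 to 0.43. Of the 5 ligands that did not pass, WNT8A and WNT9B were at 0 in all 6 libraries, and WNT1 and WNT5A had 1 count each, in untreated replicate 3. WNT2 had 0 counts untreated and 6, 0 and 3 counts with curcumin. Over the 19 ligands the summed level was 135, 112 and 130.3 CPM untreated and 64.4, 55.3 and 47.7 CPM with curcumin.

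**Figure D4:**
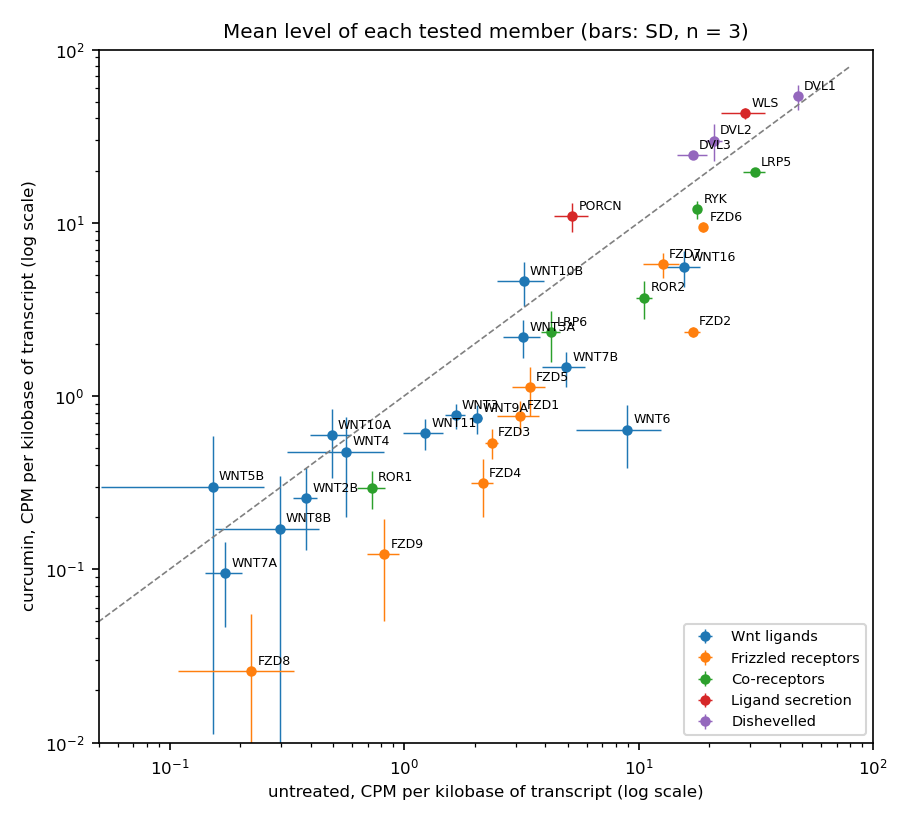
Mean level of each of the 33 tested genes in untreated (horizontal) and curcumin libraries (vertical), in CPM per kilobase of transcript on log axes, with bars for the SD of 3 libraries (cut by the lower edge where the SD reaches the mean) and a dashed line of equal level. The Frizzled genes lie under the line, WNT6 and FZD2 far under it, while PORCN, WLS and the 3 Dishevelled genes lie above it.

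The genes that prepare ligands for release moved the other way. PORCN, the membrane-bound acyltransferase of the endoplasmic reticulum (chromosome X, 48508962 to 48520814, plus strand), held 11.02, 7.93 and 10.5 CPM untreated and 20.01, 24.7 and 16.9 CPM with curcumin. All treated libraries lay above all untreated ones, and PORCN rose by 1.06 ± 0.22 on the log2 scale (adjusted p = 0.0023), with no call under library size alone (0.26, adjusted p = 0.34). WLS, the carrier that takes Wnt proteins to the surface, held 84.9, 59.3 and 90.5 CPM and then 117, 109.6 and 127 CPM (0.59 ± 0.18, adjusted p = 0.016). Under library size alone the WLS value turned to −0.21 (adjusted p = 0.31), and with the 100 most abundant genes omitted from the library size it was 0.22 without a call. Within libraries, where the scale cancels, the ratio of PORCN to the summed ligands per kilobase was 0.115 to 0.125 untreated and 0.486 to 0.709 with curcumin. The ratio of WLS to the summed Frizzled genes was 0.378 to 0.522 and then 1.99 to 2.18. The summed ligand and Frizzled levels both fell, so these ratios do not show by themselves that PORCN or WLS rose.

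Dishevelled proteins are the cytoplasmic adaptors of Frizzled receptors. DVL1, the most abundant of the 3 at 47.7 ± 2.28 CPM per kilobase untreated and 53.8 ± 8.76 with curcumin (SD, n = 3), held 155, 147 and 162 CPM and then 196, 184 and 142 CPM. DVL1 was not called (0.17 ± 0.15, adjusted p = 0.36), whereas library size alone made it a lower call (−0.63, adjusted p = 0.0082) and removal of both length and GC trends a higher one (0.40, adjusted p = 0.044). DVL3 held 76.7, 93.8 and 103 CPM untreated and 128, 137 and 129 CPM with curcumin (0.53 ± 0.15, adjusted p = 0.012), a rise that turned to −0.28 with library size alone (adjusted p = 0.15). The call was lost on leaving out untreated replicate 1 (adjusted p = 0.066) and on leaving out curcumin replicate 2 (adjusted p = 0.059), and also with a library size that omits the 100 most abundant genes (adjusted p = 0.38).

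DVL2 held 57.5, 67.6 and 64.1 CPM untreated and 101, 104 and 64.8 CPM with curcumin, so that curcumin replicate 3 lay among the untreated libraries. The call of DVL2 was marginal (0.51 ± 0.19, adjusted p = 0.042). It was lost in 10 of 14 alternatives, among them leaving out any 1 library except curcumin replicate 3 (adjusted p from 0.064 to 0.18) and library size alone, where the value turned to −0.29 (adjusted p = 0.25). The ratio of the summed Dishevelled to the summed Frizzled level per kilobase was 1.31 to 1.496 in untreated and 4.11 to 6.40 in curcumin libraries. Since the Frizzled sum fell, this ratio does not show by itself that the Dishevelled genes rose. The 3 Dishevelled genes are close paralogs, and how reads were divided among them is not stated in the labels.

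The rest of the pathway was read from 7 lists with 70 genes, of which 51 passed the filter, and 20 of these were called lower and 6 higher, with a median log2 fold change of −0.41, against 28.9% lower and 27.2% higher among all tested genes. With library size alone the counts were 36 and 4, against 56.5% and 9.62%, and in the length-corrected fit 15 and 8, against 23.0% and 25.4%. The lists hold 5 to 11 tested genes each, and their counts are to be read against these shares. Genes named outside the naming rule were picked after their values were seen. Among 16 secreted antagonists 6 were tested, 1 fell (28.9% of all tested genes) and 3 rose (27.2%). DKK1, which blocks LRP5 and LRP6, was 120.4, 135 and 97.9 CPM untreated and 25.8, 16.7 and 28.7 CPM with curcumin (log2 −2.31 ± 0.22, adjusted p = 2.9e-05). DKK4 and SOST, antagonists of the same co-receptors, appeared at low level. Both passed the filter only through the curcumin libraries, which favours a rise. DKK4 went from 0 to 0.114 CPM untreated to 1.05 to 2.38 CPM, and SOST from 0 counts in each untreated library to 1.48 to 1.72 CPM, at least 13.5-fold higher against a floor of 3 counts per library. NOTUM, which removes the Wnt lipid, was the third to rise (29.9, 28.6 and 33.2 CPM untreated, 42.9, 41.5 and 41.1 CPM with curcumin, 0.45 ± 0.15, adjusted p = 0.024), and it stood at −0.35 with library size alone and lost its call in the length-corrected fit (0.21, adjusted p = 0.26).

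Of 11 receptor turnover and R-spondin genes 7 were tested, 3 fell (28.9% of all tested genes) and 0 rose. The length-corrected fit gave 2 lower calls, and RLE factors and DESeq2 each gave 1 higher call beside 3 lower ones. RNF43, a ubiquitin ligase that clears Frizzled proteins from the surface, was 98.5, 100.5 and 115 CPM untreated and 20.7, 23.3 and 29.2 CPM with curcumin (log2 −2.10 ± 0.17, adjusted p = 1.5e-05). KREMEN1, the DKK receptor, was 80.8, 93.3 and 89.7 CPM and then 37.6, 36.9 and 37.96 CPM (log2 −1.23 ± 0.14, adjusted p = 6.6e-05), and ZNRF3, the relative of RNF43, was the third. MESD, the chaperone of LRP5 and LRP6, was 44.5, 51.3 and 47.4 CPM untreated and 32.8, 33.5 and 27.96 CPM with curcumin (log2 −0.60 ± 0.15, adjusted p = 0.0071) and was the only called gene of 6 tested accessory genes under TMM scaling. Its call was lost in the length-corrected fit (adjusted p = 0.11). There 2 of the 6 accessory genes were called higher (25.4% of the genes tested in that fit) and 0 lower (23.0%). RLE factors, DESeq2 and the replicate block each gave 1 higher call beside 1 lower. With library size alone 4 were called lower (56.5% of all tested genes) and 0 higher.

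Of 5 genes that recycle WLS, 2 rose and 0 fell, against 27.2% higher among all tested genes, and with library size alone 1 was called higher and 3 lower. SNX3, the sorting nexin that returns WLS from endosomes, rose from 80.1, 85.3 and 68.1 CPM to 225, 211 and 239 CPM (1.53 ± 0.14, adjusted p = 2.5e-05), a call kept with library size alone (0.72, adjusted p = 0.0014) and in the length-corrected fit (1.05). VPS29, a retromer subunit, was 33.6, 38.95 and 28.9 CPM and then 58.9, 56.6 and 39.6 CPM (0.61 ± 0.19, adjusted p = 0.021), turned to −0.18 with library size alone and was 0.028 in the length-corrected fit. The VPS29 call was also lost on leaving out untreated replicate 1, untreated replicate 3, curcumin replicate 1 or curcumin replicate 2, where the adjusted p ran from 0.071 to 0.088. The other retromer subunits VPS35, VPS26A and VPS26B had log2 fold changes of −0.040, −0.019 and −0.033 and were not called, except that VPS35 was called higher in the length-corrected fit (0.59, adjusted p = 0.043).

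Among 11 tested planar polarity genes 4 fell and 1 rose, a lower share near the 28.9% of all tested genes. VANGL1, a core membrane protein of planar polarity, was 55.5, 81.4 and 65.5 CPM untreated and 10.8, 15.1 and 12.7 CPM with curcumin (log2 −2.39 ± 0.20, adjusted p = 1.7e-05). The atypical cadherin CELSR1 fell from 83.2, 81.7 and 116 CPM to 37.1, 34.7 and 37.96 CPM (log2 −1.35 ± 0.17, adjusted p = 0.00013). PRICKLE4 was 0.0822 to 0.747 CPM and then 1.87 to 3.06 CPM (adjusted p = 0.011), a call lost without untreated replicate 1 (adjusted p = 0.053). Like DKK4 and SOST, PRICKLE4 passed the filter only through the curcumin libraries, which favours a rise.

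Downstream of the receptors, 7 of 10 destruction complex and beta-catenin genes fell (28.9% of all tested genes) and 0 rose. In the length-corrected fit 4 were lower (23.0%) and 1 higher (25.4%). BTRC, the ubiquitin ligase subunit that recognises beta-catenin, was 44.5, 42.9 and 48.5 CPM untreated and 18.1, 20.9 and 23.8 CPM with curcumin (log2 −1.11 ± 0.16, adjusted p = 0.00032). GSK3B, a kinase of the complex, fell by 0.99 ± 0.16 (adjusted p = 0.00047) and lost its call in the length-corrected fit (adjusted p = 0.093). Of 6 tested TCF factors and coactivators 4 fell (28.9% of all tested genes) and 0 rose, and 3 fell with RLE factors, DESeq2 or the replicate block. TCF7L2, the main TCF factor of the colon, was 259, 198 and 245 CPM untreated and 39.9, 38.9 and 42.2 CPM with curcumin (log2 −2.54 ± 0.15, adjusted p = 9.6e-06). BCL9L, a beta-catenin coactivator, was 190, 218 and 259 CPM and then 22.9, 26.4 and 69.2 CPM (log2 −2.49 ± 0.37, adjusted p = 0.00034), with curcumin replicate 3 the highest of the treated libraries.

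**Figure D5:**
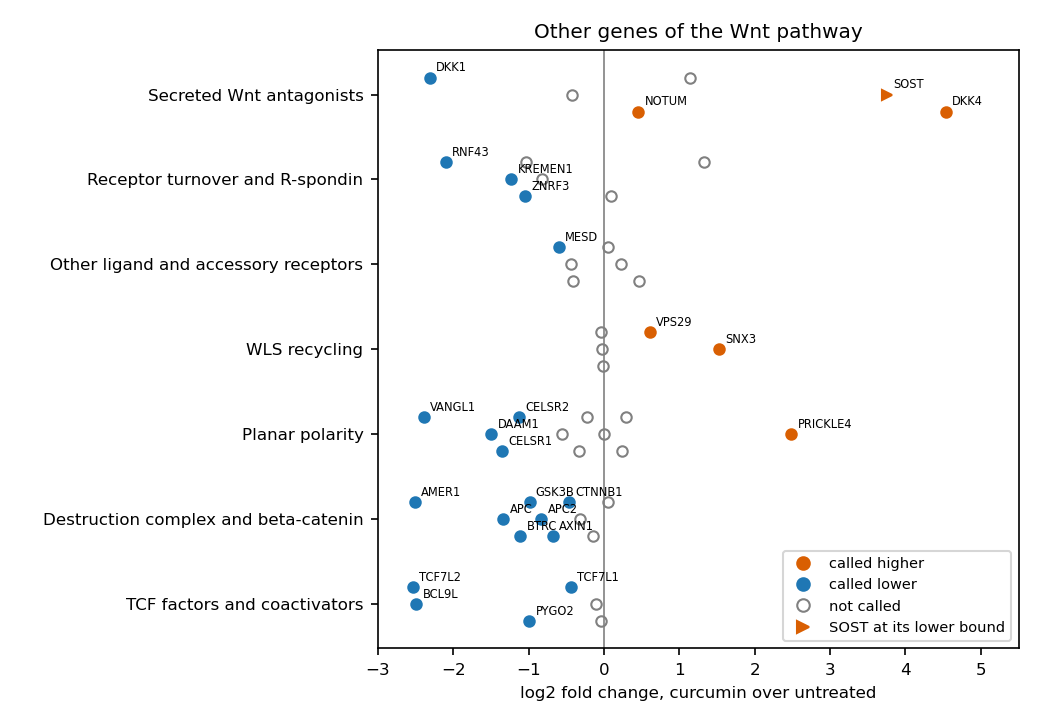
Log2 fold change of curcumin over untreated for 51 tested genes of 7 other Wnt pathway lists, with orange for called higher, blue for called lower and open grey for not called. SOST, at 0 in untreated libraries, is drawn as a triangle at its lower bound, and the 6 orange symbols lie in the rows of antagonists, WLS recycling and planar polarity.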

How the data were processed

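RNA of 6 HCT116 libraries (3 untreated, 3 curcumin) was sequenced after a SMARTer mRNA-Seq preparation, per the labels' protocols. The authors deposited estimated counts per gene, unscaled. For the aligner, the quantifier and the annotation, the entry is "not given in the sources used here". Mouse builds (GRCm38, mm10) are listed in the submitters' processing notes, but all 35106 rows carry human Ensembl identifiers and were read as human, with GENCODE 29 (GRCh38) for positions and lengths.

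Counts were rounded to whole numbers, filtered with filterByExpr (minimum count 10, total 15), scaled with TMM and tested across all genes with edgeR 4.0.16's quasi-likelihood test (R 4.3.3, no covariate). Alternatives were RLE factors, library size alone, library size after omitting the top 100 genes by abundance, no filter, a replicate block, leaving out each library, DESeq2 1.42.0, and loess (span 0.3) removal of each library's trend with length, or with length and GC (added after seeing the data). On simulated data of 3 against 3 libraries and 13579 genes, the test called 58 of 99 genes changed by a fold of 2, 92 of 98 by a fold of 4 and 7 of 13382 unchanged genes. The simulation held few changed genes, balanced between up and down. It does not cover a shift in library make-up between the groups, so it cannot show how calls fare under the scaling differences seen here.

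The genes and lists were chosen with earlier results of these data known. Named are all 39 genes, with library values where a group mean reached 1 CPM, and up to 2 rising and 2 falling genes of each list by adjusted p. Values after ± are SEs from the quasi-likelihood test or, for levels per kilobase, SDs of 3 libraries. Both include the spread among libraries, whereas the floor of 3 counts covers counting error only.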

Additional observations from a re-analysis of the deposited data

How the results depend on the processing

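The 19 lower calls among the 33 tested genes ranged from 17 to 24 over all alternatives, and the 4 higher calls depended on the scale. With library size alone 0 were called higher, and 1 was when the top 100 genes by abundance were omitted from the library size. Leaving out a library gave 2 to 5 higher calls, 2 without untreated replicate 1 or curcumin replicate 2. With library size alone the sign turned for WLS (−0.21), DVL1 (−0.63), DVL2 (−0.29), DVL3 (−0.28) and VPS29 (−0.18), for NOTUM (−0.35), and for WNT10A (−0.51) and WNT10B (−0.28), which were called on neither scale. Among the pathway lists, library size alone gave 36 lower calls in place of 20, and leaving out a library gave 3 to 7 higher calls in place of 6, 3 without untreated replicate 1. The cause was not tested. Depth limits WNT2, WNT5B, WNT7A, WNT8B, FZD8 and FZD9.

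With the replicate number as a block, 19 of the 33 were called lower and 4 higher, and 7 pathway genes higher in place of 6. Same-numbered libraries deviated together with correlations of 0.040, 0.023 and 0.11. Pairs with different numbers ran from −0.085 to 0.039, and untreated replicate 2 correlated best with curcumin replicate 1 (0.039). Correlations this weak cannot decide whether same-numbered libraries were paired. DESeq2 and RLE factors each kept the call of all 33 genes.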
